A study of Mus musculus with 8 samples.

Results

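The genes described here encode the MCM helicase of DNA replication and factors that act with it at replication origins. They were chosen by identifier from a list of 10: Mcm2, Mcm3, Mcm4, Mcm5, Mcm6, Mcm7, Mcm10, Cdc6, Cdc45 and Pcna. Of these, 9 were measured among the 17592 genes of the deposited table; Pcna (ENSMUSG00000027342) has no row in it and was not analysed here. The study exposed mesenchymal stem cells from mouse bone marrow to ropivacaine, a local anaesthetic of the amide class, whose main target is the voltage-gated sodium channel. The cells had been expanded in culture to passage 10, and the strain is labelled C57B6/J. There were 4 arrays of cells given no treatment and 4 of cells given 100 uM ropivacaine, all collected at 24 h, each hybridised to an Affymetrix mouse exon array. The treatment protocol gives the dose as 100 mM, and the micromolar value of the sample annotation was used. No allele or transgene is labelled in either group. The labels do not say that replicate arrays hold separate cultures or animals, so the p-values and intervals rest on a spread that may be only technical.

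Before a cell copies its DNA, the origin recognition complex, Cdc6 and Cdt1 load rings of Mcm2 to Mcm7 onto each origin, a step called licensing that takes place from late mitosis through G1. In S phase, Cdc45 and the GINS complex join each ring to form the active helicase, Mcm10 helps that helicase start, and Pcna clamps the polymerases to the DNA. Transcription of these genes is driven by E2F factors as cells commit to replication, and the transcripts are widely used to mark proliferating cells.

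No measured gene of the set was called as changed with ropivacaine. Of the 9, 0 passed a Benjamini-Hochberg adjusted p of 0.05 in a limma fit across all genes, against 0.404% of all genes, and 0 had an unadjusted limma p below 0.05, against 9.74% of all genes. The log2 fold changes (ropivacaine minus untreated) were small and all below 0, from -0.081 for Mcm6 to -0.0060 for Cdc45. Their median was -0.049, beside -0.0048 over all genes. The groups did not overlap for 1 of the 9, Mcm6, whereas 6.7% of all genes showed such a separation. The count of calls does not set the genes apart from the table. A negative sign was found in 9 of 9 of them and in 9200 of all 17592 genes, a description with no test, since the genes share the same 8 arrays.

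The promoter windows were searched for the words of the E2F consensus, because E2F factors are known to drive these genes. RefSeq promoters (GRCm38.p6, 250 bases before to 50 after a transcription start) were available for 8 of the 9 measured genes, as 9 windows, because Mcm7 has 2. Any of 4 words of the E2F consensus (TTTCCCGC, TTTGGCGC, TTTCGCGC or TTTGCCGC, on either strand) was found in 5 of the 9 windows, those of Mcm3, Mcm5, Mcm6, Cdc6 and the upstream start of Mcm7. Among all 32851 promoters of that length, 744 or 2.26% held such a word. A list of 81 symbols held other replication genes together with E2F factors and their regulators. Promoters were available for 66 of these symbols, and 25 of their 80 promoters, or 31.2%, held such a word. The windows of Mcm2, Mcm10, Cdc45 and the second start of Mcm7 held none, and no window of Mcm4 was searched. The word TTTGAA of the cell cycle homology region, an element of genes expressed late in the cycle, was found in 2 of the 9 windows and in 17.9% of all promoters.

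The stretches that hold the E2F words are printed on the strand of the gene, 5′ to 3′, with each word, or the letters of its reverse complement, in capitals. That of Mcm6 is 150 bases long, chr1:128359706-128359855 on the minus strand, and ends at the base before the start site. That of Mcm5 is 92 bases long, chr8:75109316-75109407 on the plus strand. The words of the other genes lie inside the annotated span of the gene and are shown with up to 8 bases on each side. They are Cdc6 at chr11:98908005-98908028 (plus strand), Mcm7 at chr5:138172033-138172056 and chr5:138171852-138171875 (minus strand), and Mcm3 at chr1:20820278-20820301 and chr1:20820263-20820282 (minus strand).
Mcm6: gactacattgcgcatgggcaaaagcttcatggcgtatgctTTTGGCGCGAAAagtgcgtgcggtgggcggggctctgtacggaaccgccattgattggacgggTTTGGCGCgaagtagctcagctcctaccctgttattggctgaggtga
Mcm5: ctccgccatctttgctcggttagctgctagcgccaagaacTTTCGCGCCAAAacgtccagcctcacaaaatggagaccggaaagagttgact
Cdc6: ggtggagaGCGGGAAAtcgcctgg
Mcm7, first word: ttcgaaccGCGGGAAAcagggtgt
Mcm7, second word: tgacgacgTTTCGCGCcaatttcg
Mcm3, first word: cttccgtgGCGGGAAAacttggga
Mcm3, second word: tgggaagtTTTGGCGCcaag
In Mcm6 and Mcm5 the first run of capitals is 2 overlapping words on opposite strands, which start 110 and 106 bases before the start site in Mcm6 and 153 and 149 bases before it in Mcm5. Mcm6 holds 3 words in all, the most among these windows. A match describes letters and not a site bound by a factor.

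Mcm6 (ENSMUSG00000026355, chromosome 1, 128331575 to 128359705) encodes a subunit of the ring and was the gene nearest to a difference. Its log2 expression in untreated cells was 9.813, 9.897, 9.836 and 9.813 in replicates 1 to 4. With ropivacaine it was 9.743, 9.787, 9.765 and 9.740. All 4 treated values lay below the lowest untreated one, with a gap of 0.026 between the groups. The means were 9.84 ± 0.04 and 9.76 ± 0.02 (SD, n = 4 each), and the log2 fold change was -0.081 (SE 0.037, 95% interval -0.165 to 0.003). The limma adjusted p was 0.53, and 10.5% of all genes had a smaller p, so the separation is not a call. In fold terms the interval runs from 0.892 to 1.002 times the untreated level.

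Mcm7 (ENSMUSG00000029730, chromosome 5, 138164583 to 138172111), another ring subunit, had the next largest difference and a much wider spread. Untreated values were 8.197, 8.083, 8.201 and 8.317, and treated values were 8.213, 8.189, 8.062 and 8.032. Treated replicates 3 and 4 lay below every untreated array, while replicates 1 and 2 lay among the untreated values. The means were 8.20 ± 0.10 and 8.12 ± 0.09 (SD, n = 4 each), and the difference of -0.0755 (95% interval -0.220 to 0.069) had a limma adjusted p of 0.78. Mcm5 (ENSMUSG00000005410, chromosome 8, 75109468 to 75128439) forms part of the gate through which the ring opens around DNA. It measured 8.527, 8.634, 8.518 and 8.494 in untreated cells and 8.525, 8.544, 8.514 and 8.393 with ropivacaine. Treated replicate 4 was lowest and the other treated arrays lay within the untreated range. Its log2 fold change was -0.049 (95% interval -0.163 to 0.065, limma adjusted p = 0.82).

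Mcm2 (ENSMUSG00000002870, chromosome 6, 88883474 to 88898780) forms the other side of that gate and also binds histones at the fork. Its untreated values were 8.356, 8.530, 8.362 and 8.474, and its treated values 8.468, 8.397, 8.346 and 8.362. The untreated arrays fell into a high pair, replicates 2 and 4, and a low pair, and the treated arrays, from 8.346 to 8.468, spanned the low pair and stayed below the high one. The log2 fold change was -0.037 (95% interval -0.158 to 0.083, limma adjusted p = 0.88).

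Mcm3 and Mcm4 had the smallest differences of the ring subunits. Mcm3 (ENSMUSG00000041859, chromosome 1, 20802966 to 20820312) ranged over 0.071 across all 8 arrays, from 9.032 to 9.103, the narrowest range of the 9 genes. Untreated values were 9.049, 9.087, 9.085 and 9.103 and treated values 9.101, 9.032, 9.034 and 9.059, with treated replicates 2 and 3 below the untreated range. Mcm4 (ENSMUSG00000022673, chromosome 16, 15623897 to 15637400) measured 9.147, 9.180, 9.217 and 9.207 in untreated cells and 9.090, 9.179, 9.229 and 9.168 with ropivacaine. Its treated arrays held both the lowest and the highest of the 8 values. The log2 fold change was -0.0245 for Mcm3 (95% interval -0.105 to 0.056, limma adjusted p = 0.88). For Mcm4 it was -0.021 (95% interval -0.116 to 0.074, limma adjusted p = 0.92).

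**Figure D1:**
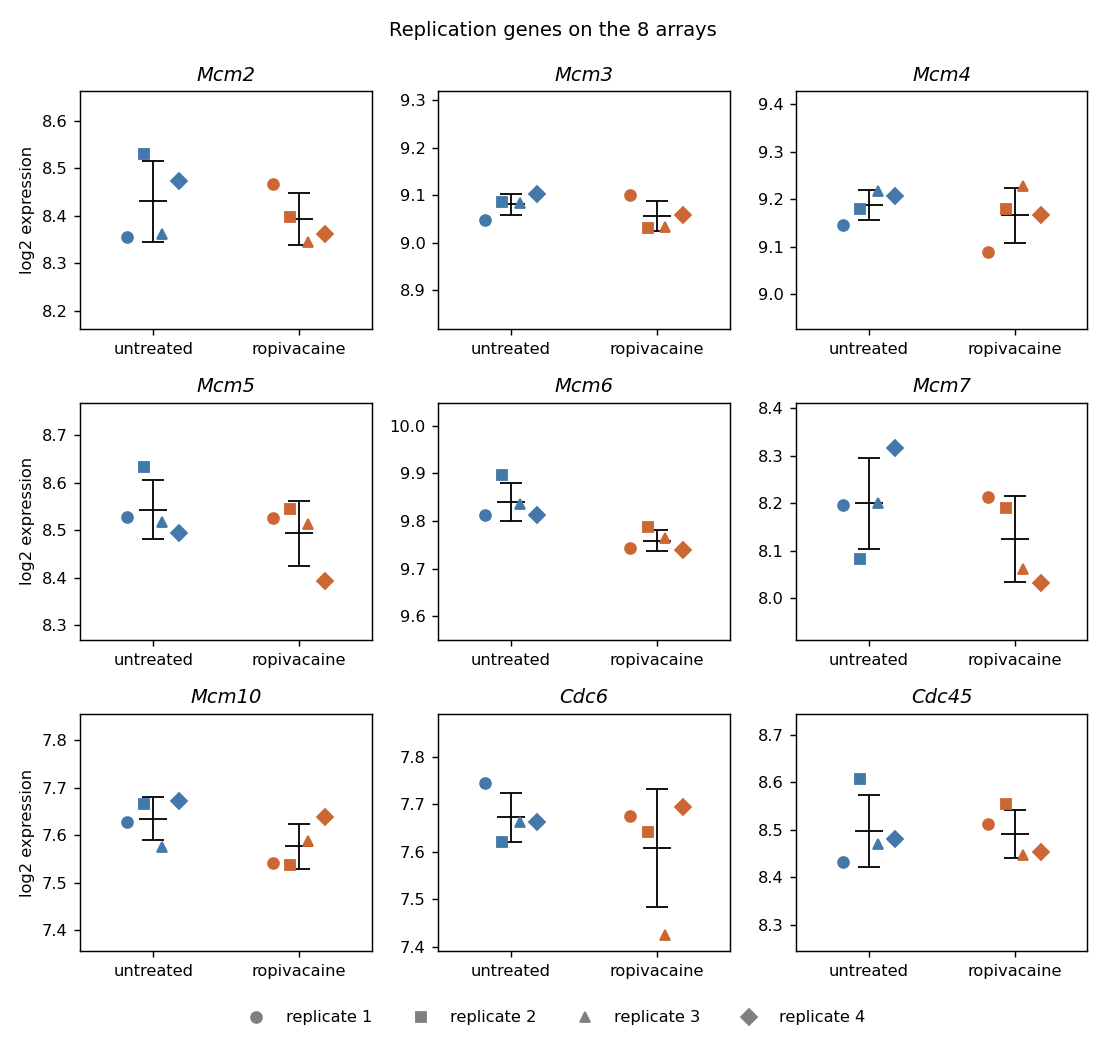
Log2 expression (vertical axis, a span of 0.5 in each panel) of the 9 measured genes in untreated and ropivacaine-treated cells. Points are single arrays with a symbol for the replicate number, and black bars give the mean ± SD of 4 arrays. The groups overlap in every panel but that of Mcm6, where the treated arrays reach 9.787 and the untreated ones start at 9.813.

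Among the factors that act around the ring, Cdc6 (ENSMUSG00000017499, chromosome 11, 98907709 to 98923942), the ATPase that helps load it, varied most. It measured 7.744, 7.621, 7.663 and 7.663 in untreated cells and 7.675, 7.641, 7.425 and 7.694 with ropivacaine. Treated replicate 3 stood 0.216 below the next treated array, a gap of 0.803 of that group's range, while the other treated arrays lay within the untreated range. The log2 fold change was -0.064 (95% interval -0.212 to 0.084, limma adjusted p = 0.82) and was -0.0028 without that array. Mcm10 (ENSMUSG00000026669, chromosome 2, 4990724 to 5012791), needed for the helicase to become active, measured 7.628, 7.665, 7.575 and 7.672 in untreated cells and 7.542, 7.538, 7.587 and 7.638 with ropivacaine. Treated replicates 1 and 2 lay below the untreated range and the others inside it. Its log2 fold change was -0.059 (95% interval -0.153 to 0.036, limma adjusted p = 0.72).

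Cdc45 (ENSMUSG00000000028, chromosome 16, 18780447 to 18811972), the subunit that joins the ring in the active helicase, showed the smallest difference. Untreated values were 8.431, 8.607, 8.470 and 8.480, and treated values were 8.511, 8.554, 8.446 and 8.453, all inside the untreated range. The log2 fold change was -0.0060 (95% interval -0.119 to 0.107, limma adjusted p = 0.99). Its sign turned to 0.031 without untreated replicate 2, 0.0090 without treated replicate 3 and 0.0067 without treated replicate 4. That of Mcm4 turned to 0.0043 without treated replicate 1.

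The intervals say what size of change these arrays leave possible, given the spread between them. If that spread is only technical, the intervals do not bound the change between cultures. Across the 9 genes they ran from -0.220 (Mcm7) to 0.107 (Cdc45), or from 0.858 to 1.077 times the untreated level, each interval being for its own gene. The median half-width was 0.113 for these genes and 0.141 over all genes. The SD within groups had a median of 0.065, against 0.090 over all genes. In each run of simulated arrays with the spread of the real genes, 200 genes drawn at random from all genes were shifted. Of these, 26.3% were called when shifted by 0.25 (log2) and 81.5% when shifted by 0.5. The rates depend on how many genes are shifted and are for genes of the whole table. Rates for the 9 genes alone were not simulated. The mean signals of the 9 genes all lay above the array median of 6.91. Whether a signal exceeds background is unknown, because detection calls were not used here. RMA sets the arrays to a common distribution, so a change in RNA per cell shared by all genes would not be seen.

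**Figure D2:**
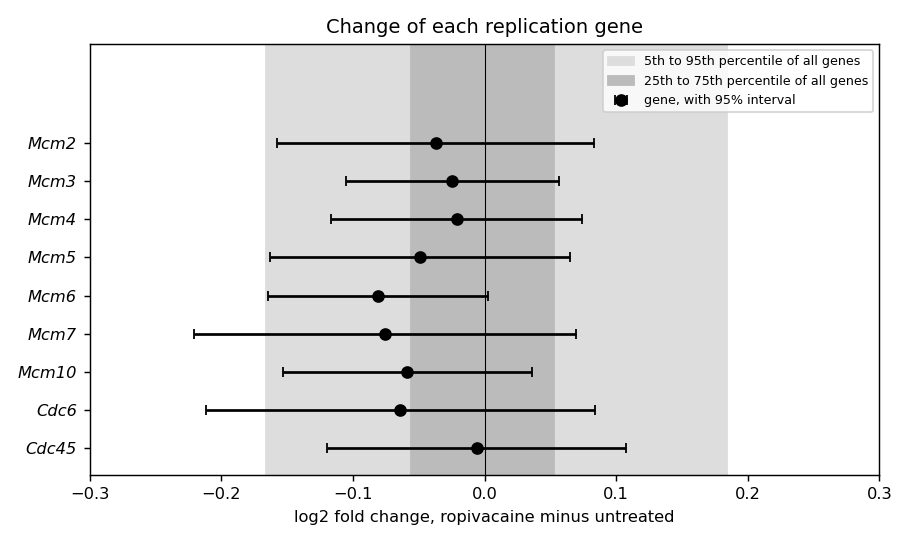
Log2 fold change of each measured gene, ropivacaine minus untreated (horizontal axis), with its 95% interval from limma. The grey bands give the spread of all 17592 genes, from -0.166 to 0.184 (5th to 95th percentile) and from -0.056 to 0.053 (25th to 75th percentile). All 9 points lie left of 0, inside the wider band, and all 9 intervals include 0.

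Counted by array, the 9 genes did not split cleanly by group. Above their mean over the 8 arrays were 7 of the 9 genes in untreated replicate 2, 7 in untreated replicate 4, and 5 in each of untreated replicates 1 and 3. In treated replicates 1 and 2 the counts were 6 and 5, in the span of the untreated arrays. In treated replicate 3 only Mcm4 lay above its mean, and in treated replicate 4 only Mcm10 and Cdc6 did. The mean deviation of Mcm2 to Mcm7 was 0.046 and 0.045 in untreated replicates 2 and 4, and -0.031 and -0.064 in treated replicates 3 and 4. It was between -0.0081 and 0.014 in the other 4 arrays. Untreated replicate 2 and treated replicate 3 had the lowest array weights that limma estimated over all genes, 0.580 and 0.708, where the other 6 arrays had 0.909 to 1.550. Without both of them 7 of the 9 differences were below 0, with Mcm2 at 0.012 and Cdc45 at 0.046. With any single array left out, 8 or 9 of the 9 were below 0. The part of array quality in the common sign was not tested.

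**Figure D3:**
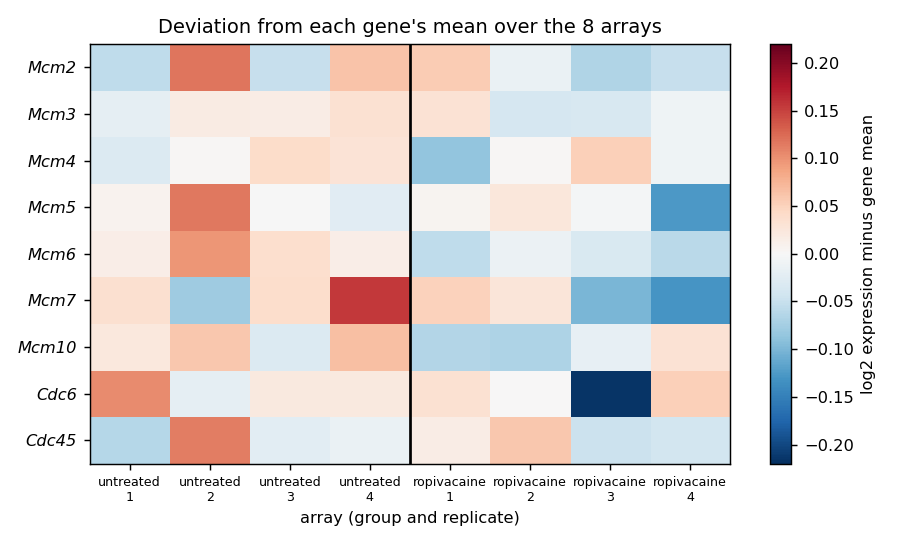
Log2 expression minus the gene's own mean over the 8 arrays, by gene (rows) and array (columns), on a colour scale from -0.22 (blue) to 0.22 (red). The black line divides untreated from treated arrays. Untreated replicate 2 lies above the gene mean for 7 of 9 genes, treated replicates 3 and 4 lie below it for most, and the darkest cell is Cdc6 in treated replicate 3, at -0.216.

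The changes of the ring subunits lay close together, and differences between subunits were not tested. The 6 differences of Mcm2 to Mcm7 lay between -0.081 and -0.021. That spread was smaller than the half-width of any of their intervals, the narrowest of which was 0.081 for Mcm3. Each half-width is for the change of its own gene and not for a difference between genes. Genes with an E2F word in their window had differences of -0.0245 (Mcm3), -0.049 (Mcm5), -0.081 (Mcm6), -0.0755 (Mcm7) and -0.064 (Cdc6). Those without a word in any window had differences of -0.037 (Mcm2), -0.059 (Mcm10) and -0.0060 (Cdc45), so the ranges of both sets overlap.

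Other genes of the replication pathway could not be read, since nothing used here pairs the rows with symbols. In their place stands a list of Ensembl identifiers that marks a cell cycle phase and is not a list of replication genes. It holds 71 measured genes that rank high in S phase in the marker pairs of the scran package, which come from mouse embryonic stem cells. None of the 9 genes is on it, although 8 of them occur in the pairs and Mcm10 does not. Cdc6 was the higher member of 28 G1 pairs and 13 S pairs and the lower member of 3 S pairs and 114 G2/M pairs. It does not stand for the set, whose members differ in these pairs. Mcm2 was the higher member of 2 G1 pairs and the lower member of 31. Mcm5 was the higher member of 0 G1 pairs and the lower member of 20, and the higher member of 13 G2/M pairs and the lower member of 3. Of the 71 genes, 0 rose and 1 fell (limma, adjusted p below 0.05), and 33 had a positive and 38 a negative log2 fold change, with a median of -0.0060. Over all 17592 genes, 50 rose and 21 fell, and 8392 had a positive and 9200 a negative log2 fold change. The gene of the list that fell was ENSMUSG00000038393. It measured 8.906, 9.024, 9.014 and 8.952 in untreated cells and 8.639, 8.442, 8.331 and 8.633 with ropivacaine, so that the groups were well apart. Its log2 fold change was -0.46 (SE 0.07, limma adjusted p = 0.049), a difference far outside the interval of every MCM gene. That adjusted p lies just below the threshold of 0.05. The call of this gene was not followed under the alternatives given below, several of which lower the count of called genes. Markers of stromal, blood, endothelial, epithelial and mitotic cells could not be read for the same lack of symbols, so the labelled cell type was not checked, and changes in the share of cycling cells and in transcript per cell cannot be told apart in these bulk samples.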

How the data were processed

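The deposited log2 values, a row per Ensembl gene and a column per array, come from the authors' RMA, per the submitters' processing notes (background correction, scaling to a common distribution and a summary of probes per gene). For its version, probe sets and annotation: not given in the sources used here. Batches were not tested, since scan dates and scanner files were not used.

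All 17592 genes on 8 arrays were fitted with limma 3.58.1 in R 4.3.3 (groups named by the array titles, no covariate, default empirical Bayes moderation, two-sided), with Benjamini-Hochberg adjustment over all genes and a threshold of 0.05. The fit was tested on simulated data. All measured members were named. Symbols of the members come with the rule that chose them. The RefSeq gene table used here holds no Ensembl identifiers. Therefore 0 of the 81 symbols of other replication genes, E2F factors and their regulators could be matched to rows. The S-phase list holds identifiers that were the higher member of at least 10 S pairs and never the lower one (scran 1.30.0). Promoter words were searched in RefSeq windows matched by symbol. Members and lists were chosen with earlier results of these data known. Replicate numbers are not stated to pair arrays. No arrays held identical values, and 4 arrays per group limit the precision. Alternatives were other scalings, moderation, array weights, filters on dim genes, the replicate block, other thresholds and each array left out. Figures were drawn with matplotlib 3.10.9.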

Additional observations from a re-analysis of the deposited data

How the results depend on the processing

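No gene of the set was called under any of 17 alternatives, and the lowest adjusted p was 0.33 (Mcm6, without the dimmest 50% of genes). With the replicate number as a block, 0 of the 9 were called either (lowest limma adjusted p = 0.57, Mcm6), and the block changed no call among them. The deviations of same-numbered arrays had correlations of 0.138, 0.0090, 0.056 and 0.070. Differently numbered arrays were not compared, so these values cannot decide whether the arrays are pairs. Mcm6 had an unadjusted limma p below 0.05 in 2 alternatives, an intensity trend and the filter on 50% of genes. Of 153 log2 fold changes under the alternatives, 146 kept their sign and 7 did not. All 7 came with array weights or with arrays left out. The intensity trend, robust moderation, the filters on dim genes and the replicate block leave each log2 fold change as it was. Signs could not turn under these settings, so the count of 146 overstates how stable the signs are. Cdc45 was 0.010 with array weights. With 1 array left out, or both untreated replicate 2 and treated replicate 3 (chosen after seeing the data), Cdc45 ranged from -0.028 to 0.046, Mcm4 from -0.045 to 0.0043 and Mcm2 from -0.062 to 0.012. The median over the set ranged from -0.060 to -0.024. The cause was not tested, here or for the counts that follow. Of 18 sets of 4 values, 0 held an array past the 95% critical value of Dixon's test. Quantile normalization and median centring hardly move these values, which already share 1 distribution, and so are no check of the signs. The count of called genes over the whole table was 71. It was 135 with an intensity trend, 114 and 179 without the dimmest 25% and 50% of genes, where fewer genes were tested, and 3 with the replicate block. It was 15 at an adjusted p below 0.01, 150 at 0.1, 7 without both arrays named above, and 15 to 31 with 1 array left out. The lack of detection calls leaves the signal over background unknown.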
